A study of Mus musculus with 6 samples.

Results

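The genes of the proteasome were compared between unsorted mouse bone marrow and marrow cells sorted by green fluorescent protein (GFP), which a renin-driven transgene expressed. They were chosen by symbol: a gene counted when its symbol on the array begins with Psma, Psmb, Psmc, Psmd, Psme, Psmf or Psmg and a digit. The rule found 49 of 18193 named genes, read by 103 probe sets (a probe set is the group of oligonucleotides that reads 1 transcript). Of these, 47 encode subunits, activators, an inhibitor or assembly chaperones of the proteasome. The other two, Psmc3ip and Psme3ip1, encode proteins named as partners of a subunit and were kept apart. Psme2 shares its probe set with Psme2b and was not analysed here.

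All mice were adults of both sexes, 3 to 6 months old, hemizygous for a transgene in which renin sequences drive GFP, so the controls carried it too. Femur marrow of 4 to 5 mice was pooled for each replicate, giving 3 pools. Each pool gave 1 unsorted sample (presort, n = 3) and 1 GFP-positive sample (sorted, n = 3), taken after scatter gates that removed erythrocytes and debris and kept single cells. The GFP gate let in 0.1% of the cells of animals without the transgene. A GFP-positive cell is one in which the transgene was active, which is not a direct measure of the mouse's own renin gene. Each sample was read on 1 Affymetrix array, and levels and differences below are on the log2 intensity scale unless said otherwise.

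The proteasome degrades proteins marked with ubiquitin. Its core is a barrel of alpha rings, which gate the entrance, and beta rings, which hold the proteolytic sites. The regulatory particle caps the barrel: ATPases of its base unfold the substrate, and its lid removes ubiquitin. In lymphocytes and other immune cells 3 catalytic beta subunits can be replaced by Psmb8, Psmb9 and Psmb10, which makes the immunoproteasome and changes the peptides available for MHC class I. Other activators can take the place of the regulatory particle, and dedicated chaperones build the rings.

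Marker genes of marrow cell types differed between the groups. Of the B cell markers 9 of 9 measured were higher in sorted samples, with summed intensities (linear scale) of 9771 to 19613 in presort and 69820 to 74633 in sorted arrays. All 9 erythroid, 12 neutrophil, 10 monocyte and macrophage and 14 mitosis genes measured were lower, with list medians of -2.57, -2.69, -2.86 and -2.55. The summed intensities ran from 68294 to 71345 against 18073 to 30605 for erythroid, from 172846 to 185934 against 38483 to 75123 for neutrophil, from 23013 to 30774 against 2273 to 5468 for monocyte and macrophage, and from 60621 to 61475 against 9984 to 15533 for mitosis genes, presort first. Over all genes tested 18.1% were called lower and 14.5% higher (limma, Benjamini-Hochberg adjusted p under 0.05), and several smaller lists were nearer to these shares. Of 8 NK and T cell genes 2 were lower, of 5 megakaryocyte genes 3 were lower, of 7 plasma cell genes 3 were higher and 1 lower, and of 6 smooth muscle and juxtaglomerular genes 1 was higher and 1 lower. Their summed intensities, presort first, were 3888 to 4579 against 864.4 to 1744, 1269 to 6539 against 620.7 to 2340, 11765 to 13041 against 14147 to 16375, and 732.5 to 1115 against 318.7 to 507.3. RMA intensities have no zero, so no marker is listed at 0. The beta-actin signal at the 3' end was above that at the 5' end by 1.11, 0.95 and 0.81 in presort replicates 1, 2 and 3 and by 3.17, 1.54 and 1.43 in the sorted ones (two-sided exact permutation p = 0.1, the smallest for 3 against 3), so sorted replicate 1 stood apart. What part cell makeup and RNA quality have in the differences below was not tested. In such bulk samples fewer cells of a type and less RNA per cell cannot be told apart.

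Proteasome genes were mostly a little lower in the sorted samples, and a few moved much more than the rest. Of the 49 genes, 15 fell and 3 rose (limma, Benjamini-Hochberg adjusted p under 0.05), where 18.1% of all genes tested were called lower and 14.5% higher. In percent, 30.6% of the proteasome genes fell and 6.12% rose. Their median difference was -0.38, that of all genes -0.0021, and 41 of 49 differences were below 0. The 3 risers were Psme4, Psmb10 and Psme3ip1. The falls beyond 2-fold were those of Psmg1, Psmf1, Psmc3ip and Psmd9. All 3 sorted values lay below all 3 presort values for 30 of the 49 proteasome genes and above them for 5, against 23.6% and 20.9% of all genes.

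Proteasome genes are bright, and bright genes are called more often on these arrays. Among the 5460 genes with a mean of at least 9 on the log2 scale, 26.6% were called lower and 28.0% higher, with a median difference of 0.03. Of the 42 proteasome genes this bright, 12 fell and 3 rose, with a median of -0.36. Beside that background the share of called falls is close and the share of called rises is smaller. All 3 sorted values lay below all 3 presort values for 1732 of the 5460 bright genes and above them for 1901. For the 42 bright proteasome genes these counts were 25 and 5. The median difference of the 49 genes was -0.31 in pool 1, -0.42 in pool 2 and -0.28 in pool 3. Centring each array on its median moved the median of all genes to 0.23 and that of the proteasome genes to -0.15, and 41 of 49 stayed below the median of all genes. With that centring 8 proteasome genes were lower and 5 higher, and of all called genes 66.7% were higher, against 44.4% as deposited. Values between 0 and -0.23 therefore have no settled sign, and some larger falls changed sign in other settings, given in the closing section. When the fit held each array's beta-actin gap between ends as a covariate, the median of the proteasome genes was -0.19 and that of all genes 0.03, 34 of 49 were below 0, and 10 were called lower and 3 higher. Without pool 2 the counts were 8 lower and 1 higher, without pool 3 they were 9 and 2, and without presort replicate 2 they were 9 and 2. Other settings raised the count of falls. With the pool as a block, which keeps the pairing, 22 were lower and 3 higher. Array weights gave 20 and 3, and 19 were lower without sorted replicate 1 or without sorted replicate 3.

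**Figure D1:**
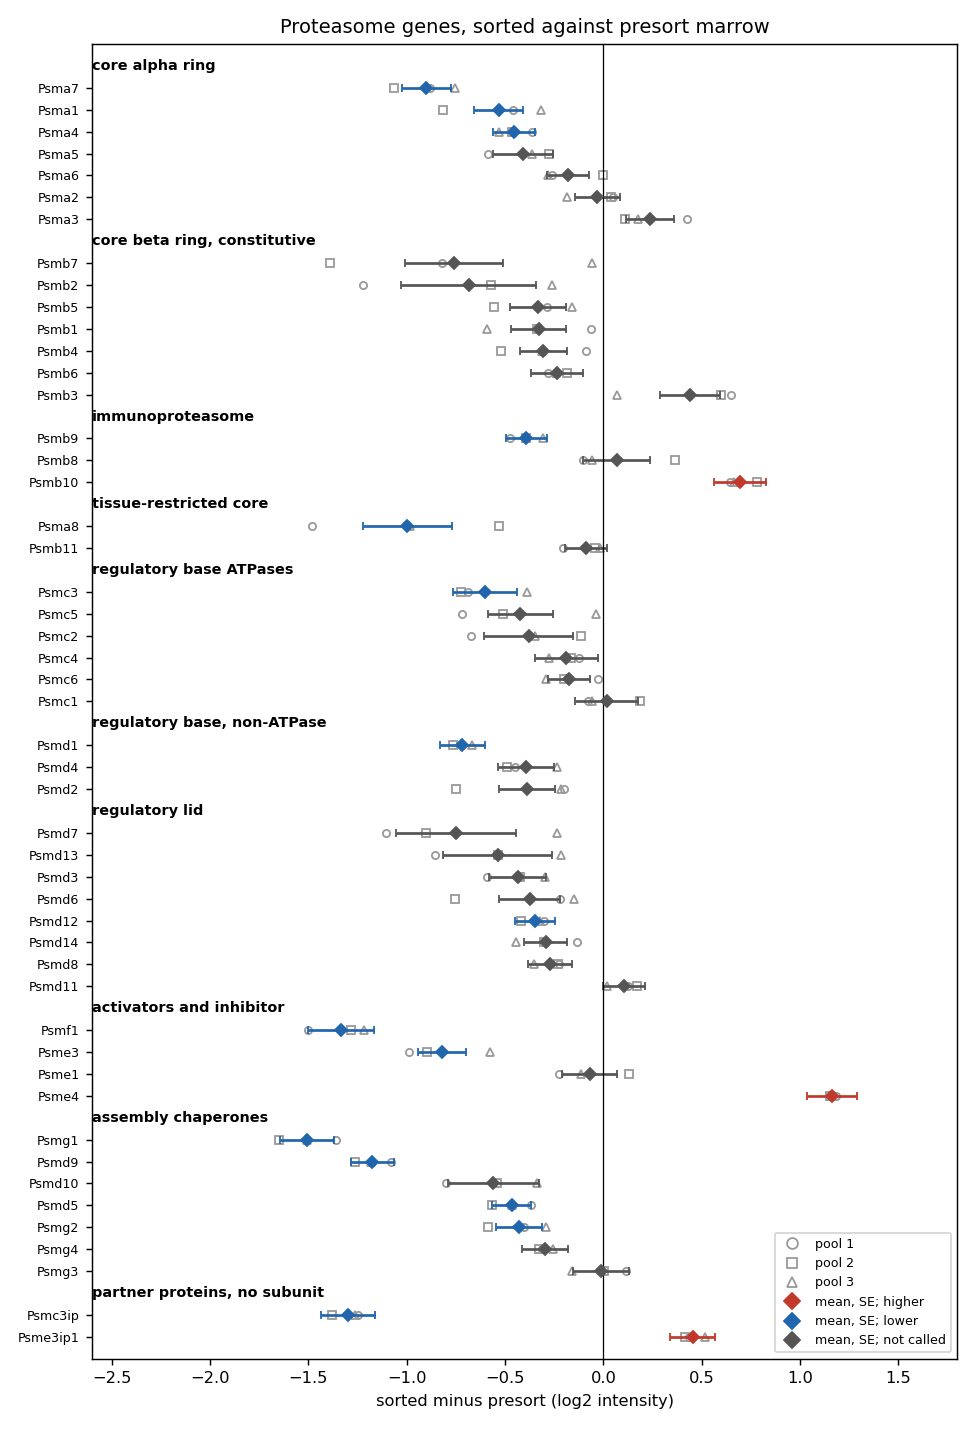
Difference between sorted and presort samples (log2 intensity, horizontal axis) for each of the 49 proteasome genes, grouped by role. Diamonds are means with the SE of the limma fit, coloured by call, and open marks are the differences within pools 1, 2 and 3; 41 of the 49 means lie below 0, with Psme4 at 1.16 and Psmg1 at -1.51 at the ends.

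The alpha ring forms the outer gate of the core. Of its 7 subunits, 3 fell, none rose, and the median difference was -0.41. That is 42.9% called lower, where the share was 18.1% over all genes and 26.6% over the bright ones. Psma7 stood at 10.84, 11.11 and 10.98 in presort replicates 1, 2 and 3 and at 9.96, 10.05 and 10.22 in the sorted ones. The groups did not overlap, and the fall was 0.90 ± 0.13 (SE; 1.87-fold; limma adjusted p = 0.000911). The second probe set of Psma7 gave a difference of -0.95. Psma1 was at 11.98, 12.15 and 11.98 before and at 11.52, 11.34 and 11.66 after sorting, a fall of 0.53 ± 0.12 (adjusted p = 0.0122). Every sorted value was again below every presort value. Psma4 fell by 0.45 ± 0.11 (adjusted p = 0.0133), from a presort mean of 11.06 to 10.61.

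The other alpha subunits did not pass the test. Psma6, with the highest mean of the ring, was at 13.11, 13.01 and 13.10 in presort and at 12.86, 13.01 and 12.81 in sorted arrays (-0.18; adjusted p = 0.267). In pool 2 its values were equal to within 0.01. Psma5 stood at -0.41 (adjusted p = 0.0809), Psma2 at -0.03 and Psma3 at 0.24. Psma3 was higher in all 3 pools and its groups did not overlap, and it passed with median centring (0.46, adjusted p = 0.0290). Psma5 passed in 4 of 18 alternatives, among them the pool as a block (adjusted p = 0.0368) and without sorted replicate 2 (0.0327). The lowest adjusted p of these limma fits was 0.00302. All 3 probe sets of Psma5 were lower, at -0.53 to -0.41. The Psma1 call was lost without presort replicate 2 (0.0573) or pool 2 (0.128), and the mean of its 4 probe sets stood at -0.14. Psma4 did not pass without presort replicate 2 or 3 or without pool 2 or 3 (0.0587 to 0.146), and both missed with median centring and with the beta-actin covariate (0.0578 for Psma1 and 0.0735 for Psma4).

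The beta ring holds the proteolytic sites, and none of its 7 constitutive subunits passed the test. The median difference was -0.33, and 5 of the 7 had an unadjusted limma p under 0.05. So did 7283 of all 18193 genes and 3509 of the 5460 genes with a mean of at least 9. The catalytic subunit Psmb5 (chymotrypsin-like site) was at 11.66, 11.87 and 11.88 in presort and at 11.38, 11.32 and 11.72 in sorted replicates (-0.33 ± 0.14, SE; adjusted p = 0.118). Psmb6 (caspase-like site) was at 11.08, 11.33 and 11.23 before and at 10.80, 11.15 and 10.98 after sorting (-0.24; 0.232). Psmb7 (trypsin-like site) was at 11.73, 11.83 and 11.57 before and at 10.91, 10.44 and 11.51 after. For Psmb5 and Psmb6 the groups overlapped, and for Psmb7 they did not. The Psmb7 difference of -0.76 ± 0.25 narrowly missed (adjusted p = 0.0504), and its pools differed, at -0.82, -1.39 and -0.06. Psmb7 passed without sorted replicate 3 (adjusted p = 0.00503), without pool 3 (0.0170), and in 3 other settings given in the closing section. Psmb5 passed without sorted replicate 3 (0.0368).

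Of the structural beta subunits, Psmb4 had the highest mean, at 12.87, 12.99 and 12.91 in presort and 12.78, 12.47 and 12.60 in sorted arrays. Its difference was -0.31 and that of Psmb1 -0.33, and both passed without sorted replicate 1 (adjusted p of 0.0365 and 0.0241) or without pool 1 (0.0489 and 0.0444). Their other probe sets were not lower. The second one of Psmb4, with a mean of 12.40, stood at 0.03, and 2 much dimmer ones of Psmb1 stood at 0.42 and 0.17. Psmb2 stood at -0.69 ± 0.34 with the widest spread of the ring: its sorted replicate 1 was at 8.74 and the other two at 9.99 and 10.005. It passed with the pool as a block (adjusted p = 0.0319). Psmb3 stood at 0.44 (adjusted p = 0.0629) at its brighter probe set and at -0.65 at the other, each with an unadjusted p under 0.05, so the 2 probe sets of this gene disagree in sign. The brighter one passed without presort replicate 3 (0.0479) and with median centring (0.00920).

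The 3 immunoproteasome subunits went 3 different ways. Psmb10, the inducible trypsin-like subunit, was at 9.95, 10.14 and 10.21 in presort and at 10.59, 10.92 and 10.87 in sorted replicates. Every sorted value exceeded every presort value, and the rise was 0.70 ± 0.13 (SE; 1.62-fold; limma adjusted p = 0.00461). Psmb9, the inducible subunit that replaces Psmb6, was at 10.40, 10.48 and 10.38 before and at 9.92, 10.08 and 10.08 after sorting. Its groups did not overlap either, and it fell by 0.39 ± 0.11 (1.31-fold; adjusted p = 0.0225). Psmb8, the inducible chymotrypsin-like subunit, was at 10.94, 11.02 and 11.28 before and at 10.84, 11.39 and 11.22 after (0.07 ± 0.17; adjusted p = 0.828). Its groups overlapped, with pool differences of -0.11, 0.36 and -0.06. The Psmb10 call was lost without pool 2 (adjusted p = 0.0514). The Psmb9 call was lost without any one of the 3 presort arrays or any pool (0.0556 to 0.129), with median centring (-0.16; 0.218) and with the beta-actin difference as a covariate (-0.29; 0.152).

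**Figure D2:**
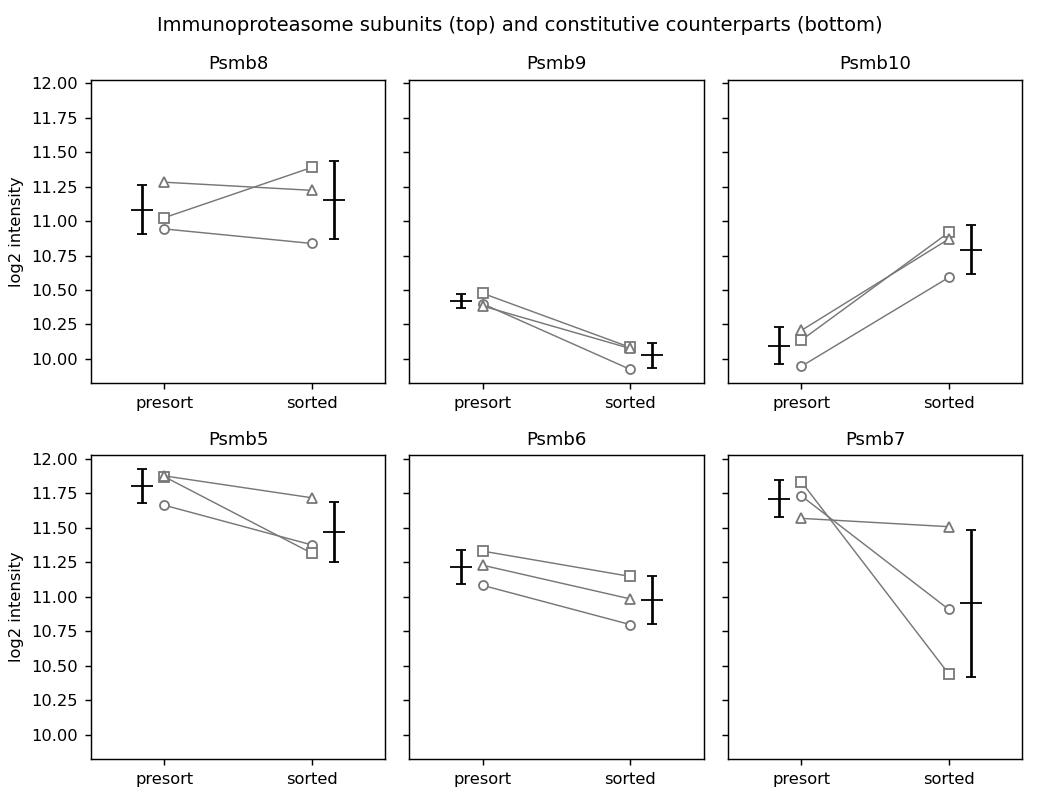
Log2 intensity of the immunoproteasome subunits (top row) and of the constitutive subunits they replace (bottom row) in presort and sorted arrays. Lines join the 2 arrays of a pool (circle pool 1, square pool 2, triangle pool 3), and bars beside them are the mean and SD of n = 3; Psmb10 rises in each pool while Psmb7 falls by 0.82 and 1.39 in pools 1 and 2 and by 0.06 in pool 3.

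Each inducible subunit was set against the constitutive one it replaces, as the difference of the 2 log2 levels within an array. Only its change between groups is read, since levels of different probe sets are not comparable. Psmb10 over Psmb7 was at -1.78, -1.70 and -1.36 in presort and at -0.32, 0.48 and -0.64 in sorted replicates. The groups did not overlap, and the ratio changed by 1.45 (2.74-fold), by 1.47, 2.17 and 0.72 in pools 1, 2 and 3. Psmb8 over Psmb5 went from -0.72, -0.85 and -0.59 to -0.54, 0.07 and -0.50, a change of 0.40, of which pool 2 gave 0.92 and pools 1 and 3 gave 0.18 and 0.10. Psmb9 over Psmb6 changed the other way, by -0.15, from -0.68, -0.86 and -0.84 to -0.87, -1.06 and -0.91. In all 3 pairs the groups did not overlap, and the two-sided exact permutation p of each was 0.1 (0.1 after Benjamini-Hochberg adjustment over 3 pairs), the smallest that 3 against 3 arrays allow. Without pool 2 the Psmb8 over Psmb5 change was 0.14, and without sorted replicate 2 it was 0.20.

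Psmb9 and Psmb8 lie in the MHC region next to the peptide transporter genes, in the RefSeq order Psmb9, Tap1, Psmb8, Tap2. The starts of Psmb9 and Tap1 are 226 bases apart on opposite strands, so both read from 1 intergenic stretch. It is shown because its 2 genes have their values side by side here: Psmb9 fell by 0.39, and Tap1 stood at 0.42 without passing the test (adjusted p = 0.181). Tap1 was at 9.09, 8.42 and 8.78 in presort and at 8.86, 9.28 and 9.39 in sorted arrays, and the groups overlapped. Tap2 stood at -0.04. The window below runs from 250 bases before to 50 after the start of Psmb9 (RefSeq, GRCm38.p6, chr17:34187281-34187580, minus strand), 5′ to 3′, and capitals mark the reverse complement of a CCAAT box.
Psmb9: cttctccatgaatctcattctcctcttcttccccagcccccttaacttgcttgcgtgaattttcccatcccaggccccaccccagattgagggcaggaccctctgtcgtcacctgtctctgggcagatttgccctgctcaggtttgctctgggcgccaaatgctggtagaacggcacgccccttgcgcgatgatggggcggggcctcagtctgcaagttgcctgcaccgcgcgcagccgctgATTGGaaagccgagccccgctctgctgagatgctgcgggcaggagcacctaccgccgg

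The tissue-restricted core subunits were near the bottom of the scale. Psmb11, the beta subunit of thymic epithelium, was at 4.79, 4.83 and 4.79 in presort and at 4.58, 4.78 and 4.77 in sorted arrays and did not pass (-0.09). Psma8, the alpha subunit of male germ cells, was at 6.56, 5.76 and 5.81 before and at 5.08, 5.23 and 4.83 after sorting. Its groups did not overlap and it was called lower (-0.997 ± 0.23, SE; limma adjusted p = 0.0106), a call lost without pool 3 (0.0649). The lowest gene mean on these arrays was 3.50, and without detection calls it is unknown whether such dim probe sets read their transcript.

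In the regulatory particle, 3 of the 17 subunits matched by the symbol rule fell, none rose, and the median difference was -0.38. The share called lower, 17.6%, was near the 18.1% of all genes and below the 26.6% of the bright ones. The differences lay closer together than in the core, with an SD over genes of 0.23 against 0.36 in the 14 constitutive core subunits. The core value includes Psmb3, whose probe sets disagree in sign, and this contrast was not tested. Among the 6 ATPases of the base, which thread the substrate into the core, Psmc3 fell. It was at 11.73, 12.06 and 11.97 in presort and at 11.04, 11.33 and 11.58 in sorted replicates (-0.60 ± 0.16, SE; limma adjusted p = 0.0238), and the groups did not overlap. Psmc2, with the highest mean of the ATPases, was at 12.60, 12.91 and 12.95 before and at 11.93, 12.79 and 12.60 after (-0.38; 0.269). Its groups overlapped. Psmc5 stood at -0.42, Psmc4 at -0.19, Psmc6 at -0.17 and Psmc1 at 0.02, none of them called. Psmc3 did not pass when presort replicate 2 or 3, sorted replicate 2, or pool 2 or 3 was left out (adjusted p from 0.0527 to 0.160), with median centring (0.0635) and with the beta-actin covariate (-0.31; 0.232). Psmc5 passed without sorted replicate 3 (0.0127).

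The non-ATPase subunits of the base matched by the symbol rule are the scaffolds Psmd1 and Psmd2 and the ubiquitin receptor Psmd4. Psmd1 was at 11.19, 11.02 and 11.12 in presort and at 10.47, 10.26 and 10.45 in sorted replicates. It fell by 0.72 ± 0.11 (SE; 1.64-fold; limma adjusted p = 0.00176), with no overlap and with differences of -0.72, -0.76 and -0.67 in the 3 pools. Psmd2 and Psmd4 both stood at -0.39 (adjusted p of 0.0780 and 0.0725) and were lower in every pool. Psmd4, with the highest mean of the 3, was at 11.70, 12.04 and 11.83 before and at 11.25, 11.55 and 11.60 after sorting. With the pool as a block Psmd4 passed (0.0386), and Psmd2 passed without sorted replicate 1 (0.0481).

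The lid removes the ubiquitin chain. Of its 8 subunits matched by the symbol rule, Psmd12 fell and the other 7 were not called. Sem1, a small lid subunit that the rule does not match, was listed with the proteasome-bound factors below. It fell by 0.60 (limma adjusted p = 0.0130). Psmd12 was at 11.05, 11.04 and 11.04 in presort and at 10.74, 10.63 and 10.72 in sorted replicates, a fall of 0.35 ± 0.10 (SE; adjusted p = 0.0293). The groups did not overlap, yet the call was lost without any presort array, sorted replicate 2, sorted replicate 3 or any pool (0.0584 to 0.198). It was also lost with median centring (0.384), with an intensity trend and robust prior (0.0575) and with the beta-actin covariate (0.0693). Psmd14, the deubiquitinase that cuts the chain off, was at 12.57, 12.60 and 12.61 before and at 12.43, 12.30 and 12.16 after sorting. Every sorted value was lower, and its difference of -0.29 did not pass (adjusted p = 0.0844), but did without sorted replicate 1 (0.0435). Psmd7 stood at -0.75, Psmd13 at -0.54, Psmd3 at -0.44, Psmd6 at -0.38, Psmd8 at -0.27 and Psmd11 at 0.11. With the pool as a block Psmd3, Psmd7 and Psmd13 passed (0.0272, 0.0184 and 0.0309), as did Psmd3 and Psmd7 without sorted replicate 3 (0.0284 and 0.0158) and Psmd6 without sorted replicate 1 (0.0487).

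In 5 genes sorted replicate 1, the array with the highest beta-actin 3' to 5' difference, lay more than 0.6 below the other sorted arrays. They were Psmb2 (1.25 lower), Psmd13 (0.71), Psmd10 (0.68), Psmc2 (0.67) and Psmd7 (0.67), picked after their values were seen. Psmd7, for example, was at 9.03, 9.49 and 9.46 in presort and at 7.93, 8.59 and 9.22 in sorted arrays. With the beta-actin difference as a covariate, which moved the median of all 49 genes from -0.38 to -0.19, the differences of these 5 were 0.13 for Psmb2, 0.09 for Psmd13, -0.05 for Psmd10, 0.13 for Psmc2 and -0.08 for Psmd7. These genes were picked for low values in the array where the covariate is highest. A move towards 0 was thus built into the choice. The covariate was also higher in every sorted array than in any presort array, and the part of RNA quality was not tested. Sorted replicate 1 was the lowest of the 3 sorted arrays for 27 of the 49 genes, and without it 19 fell and 3 rose.

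The activators and the inhibitor ranged from 1.16 to -1.33, and of these 4 genes 1 rose and 2 fell. Among the bright genes 28.0% were called higher and 26.6% lower. Psme4, a large activator that caps the core in the nucleus, was at 11.64, 11.48 and 11.38 in presort and at 12.82, 12.63 and 12.53 in sorted replicates. The groups did not overlap, and the rise was 1.16 ± 0.13 (SE; 2.24-fold; limma adjusted p = 0.000257), at 1.18, 1.15 and 1.15 in pools 1, 2 and 3. All 6 probe sets of Psme4 were higher, by 0.87 to 1.63, each with an unadjusted p under 0.05. Psme3, an activator of the nucleus built of a single subunit type, was at 10.94, 10.82 and 10.59 before and at 9.95, 9.92 and 10.02 after sorting. It fell by 0.82 ± 0.12 (1.77-fold; adjusted p = 0.00132). Its second bright probe set stood at -0.95 ± 0.56 and had presort values of 11.23, 9.57 and 9.78, so that one varied too much to pass. Psme1, a subunit of the interferon-inducible activator, was at 10.89, 11.004 and 11.03 before and at 10.66, 11.13 and 10.91 after. Its groups overlapped (-0.07; adjusted p = 0.776).

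Psmf1 encodes a protein named for inhibiting the proteasome in the test tube. It was at 10.37, 10.63 and 10.63 in presort and at 8.86, 9.35 and 9.41 in sorted arrays. No value overlapped, and it fell by 1.33 ± 0.17 (SE; 2.52-fold; limma adjusted p = 0.000576). All 4 of its probe sets had differences below 0, from -0.34 to -1.33.

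**Figure D3:**
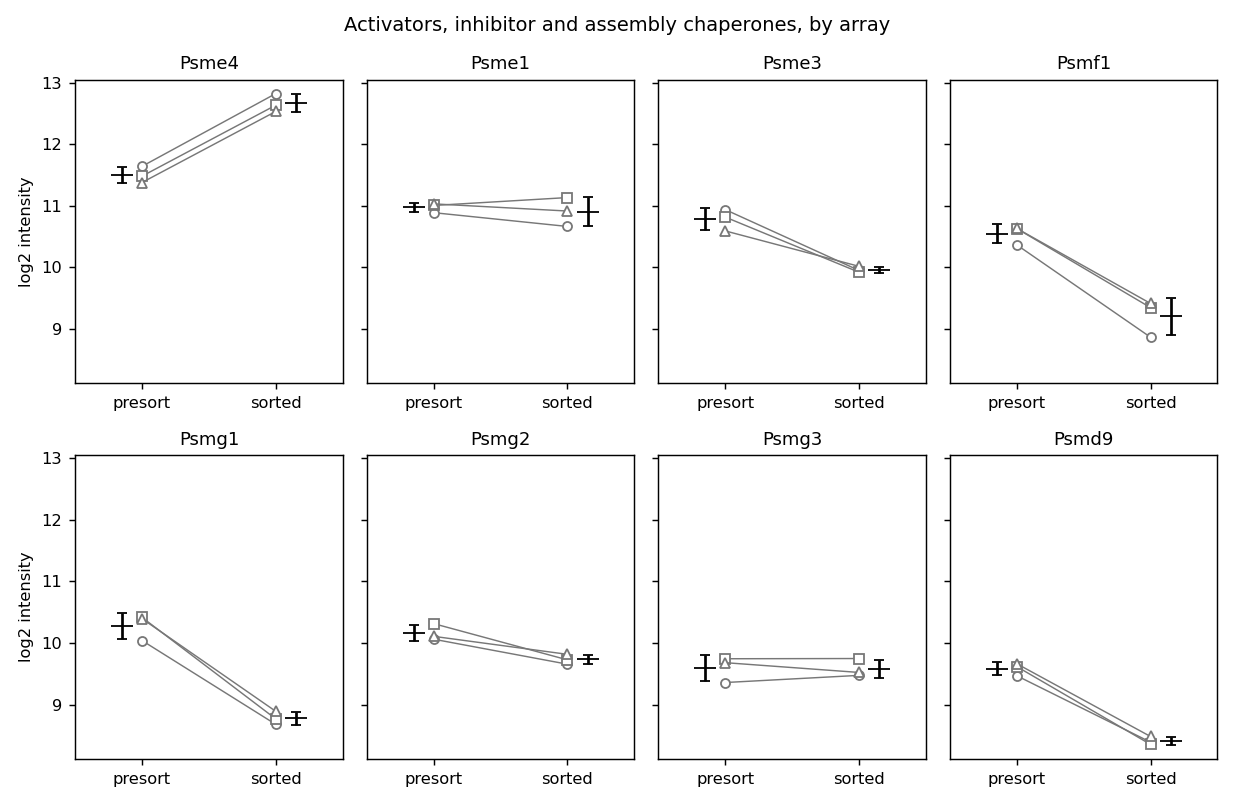
Log2 intensity of the activators Psme4, Psme1 and Psme3, the inhibitor Psmf1 and the chaperones Psmg1, Psmg2, Psmg3 and Psmd9 in presort and sorted arrays, on 1 shared axis. Lines join the arrays of a pool (circle pool 1, square pool 2, triangle pool 3), and bars are mean and SD of n = 3; Psme4 rises and Psmg1, Psmf1 and Psmd9 fall by more than 1 in each pool, while Psme1 and Psmg3 overlap between groups.

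Of the 7 assembly chaperones, 4 fell, none rose, and the median difference was -0.47. In percent, 57.1% were called lower, against 18.1% of all genes and 26.6% of the bright ones. Psmg1 and Psmg2 form a pair that assembles the alpha ring. Psmg1 was at 10.04, 10.42 and 10.39 in presort and at 8.68, 8.77 and 8.89 in sorted replicates. Its groups lay more than 1 apart, and it fell by 1.51 ± 0.14 (SE; 2.84-fold; limma adjusted p = 0.000109). Psmg2 fell less, by 0.43 ± 0.12 (adjusted p = 0.0233), and had the values 10.06, 10.31 and 10.11 before and 9.66, 9.73 and 9.82 after sorting. The Psmg2 call was lost without presort replicate 2 or 3, without sorted replicate 1 or 2, without any pool (0.0510 to 0.175), with median centring (0.149) and with the beta-actin covariate (-0.35; 0.144). Psmg3 and Psmg4, the second such pair, did not pass, at -0.01 and -0.30. Psmg3 was at 9.36, 9.74 and 9.68 before and at 9.47, 9.75 and 9.52 after, and its groups overlapped.

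Psmd5, Psmd9 and Psmd10 each hold ATPases of the base during assembly. Psmd9 was at 9.47, 9.62 and 9.66 in presort and at 8.39, 8.35 and 8.48 in sorted replicates, a fall of 1.18 ± 0.11 (SE; 2.26-fold; limma adjusted p = 0.000114). The groups did not overlap, but 2 dimmer probe sets of Psmd9, with means of 6.60 and 4.89, stood at 0.43 and 0.85 (unadjusted p of 0.0198 and 0.0396). The mean of its 3 probe sets stood at 0.03, so the direction rests on the choice of the brightest one. Psmd5, with the highest mean of the chaperones, was at 10.30, 10.39 and 10.34 before and at 9.93, 9.83 and 9.88 after sorting. It fell by 0.47 ± 0.10 (adjusted p = 0.00827), a call lost without pool 2 (0.0987), without pool 3 (0.0949) and with median centring (0.106). Psmd10 stood at -0.56 ± 0.23 (0.108) and passed with the pool as a block (0.0156) and without pool 1 (0.0423).

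**Figure D4:**
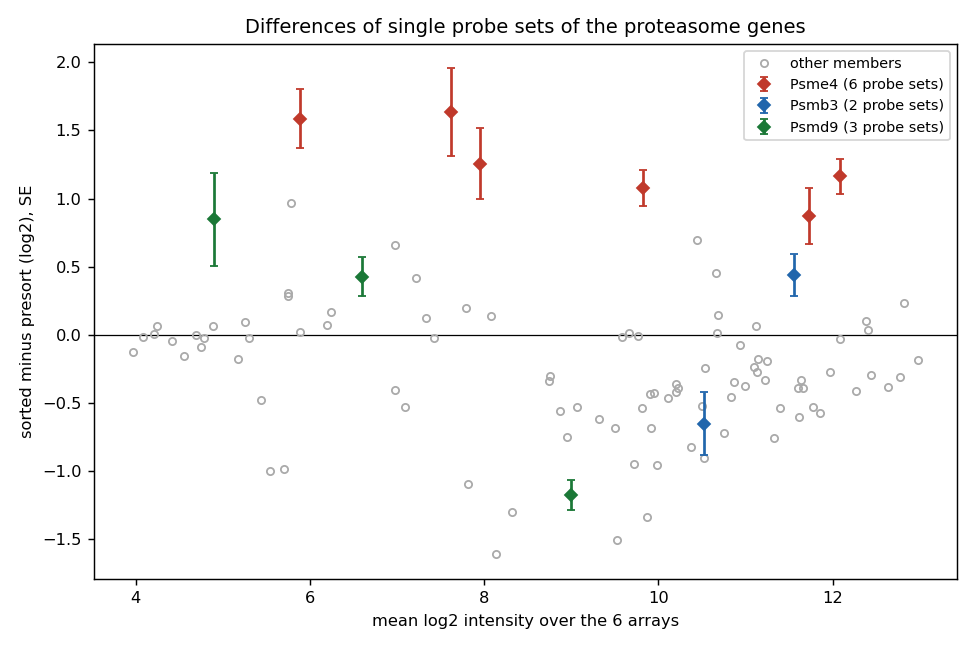
Difference between sorted and presort samples (log2, vertical axis) of each of the 103 probe sets of the proteasome genes against its mean log2 intensity (horizontal axis). Diamonds with SE mark Psme4, whose 6 probe sets lie between 0.87 and 1.63, and Psmb3 and Psmd9, whose probe sets lie on both sides of 0.

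The partner proteins moved in opposite directions. Psmc3ip, which acts with the recombinases of homologous recombination, was at 8.77, 9.04 and 9.10 in presort and at 7.52, 7.66 and 7.84 in sorted replicates. It fell by 1.30 ± 0.14 (SE; 2.46-fold; limma adjusted p = 0.000233), with no overlap. Psme3ip1, a partner of the activator Psme3, was at 10.36, 10.41 and 10.51 before and at 10.80, 10.83 and 11.03 after sorting. It rose by 0.45 ± 0.11 (adjusted p = 0.0167), while Psme3 itself fell. The Psme3ip1 call was lost without presort replicate 1 or 2, without sorted replicate 3 and without pool 2 or 3 (0.0522 to 0.112).

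Promoters were read for the 2 genes at the ends of the range, Psme4 and Psmg1, from 250 bases before to 50 after the RefSeq start. The windows are GRCm38.p6 chr11:30771525-30771824 (plus strand) for Psme4 and chr16:95990911-95991210 (minus strand) for Psmg1, 5′ to 3′. Capitals mark matches to the 4 motifs given next.
Psme4: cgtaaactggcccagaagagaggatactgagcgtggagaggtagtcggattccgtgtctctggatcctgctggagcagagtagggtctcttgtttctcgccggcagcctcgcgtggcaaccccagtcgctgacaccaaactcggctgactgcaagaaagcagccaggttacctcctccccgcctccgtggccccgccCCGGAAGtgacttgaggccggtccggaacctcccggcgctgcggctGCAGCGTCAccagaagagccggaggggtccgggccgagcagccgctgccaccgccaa
Psmg1: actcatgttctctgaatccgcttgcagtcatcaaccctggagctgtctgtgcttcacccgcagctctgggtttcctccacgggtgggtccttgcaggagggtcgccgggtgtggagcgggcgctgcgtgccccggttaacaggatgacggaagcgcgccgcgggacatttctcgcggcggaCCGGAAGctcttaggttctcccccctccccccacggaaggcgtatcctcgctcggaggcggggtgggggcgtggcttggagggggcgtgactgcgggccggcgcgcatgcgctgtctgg

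Both windows hold the ETS core CCGGAAG. Psme4 also holds a match to TGACNNNGC, the antioxidant response element core read by Nfe2l1 and Nfe2l2. Each motif was searched on both strands in 44 promoter windows of 41 of the 49 genes and in all 32851 windows of the table. CCGGAAG was in 38.6% of the proteasome windows, in 8.86% of all windows and in 11.6% of those of protein-coding genes. TGACNNNGC was in 13.6% against 12.4% of all windows, CCAAT in 36.4% against 37.4% and GAAANNGAA, a pair of repeats read by IRF factors, in 15.9% against 8.56%. The window of Psmb10 held none of the 4. The 16 genes with CCGGAAG had a median difference of -0.36 and the 25 without it -0.31. A match is a description of letters and not a shown binding site.

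Genes that work with the proteasome moved in both directions, as did genes at large. Over all genes tested 14.5% were called higher and 18.1% lower, and over the bright ones 28.0% and 26.6%. Of 16 measured proteasome-bound factors and shuttles (22 listed), 6 rose and 4 fell, with a median of -0.10. Txnl1, a thioredoxin on the proteasome, fell by 0.89 (limma adjusted p = 0.00136), and Uchl5, a deubiquitinase of the regulatory particle, fell by 0.86 (0.00235). Ubqln2, which shuttles ubiquitinated proteins to the proteasome, rose by 0.85 (0.00216), and Ecpas, a scaffold that binds core and regulatory particle, rose by 0.67 (0.0247). Pomp, which matures the beta ring, stood at -0.48 and did not pass (0.174). Of 8 measured genes of the p97 segregase, which extracts ubiquitinated proteins, 2 rose and 2 fell: Faf1 stood at -1.07, Ubxn7 at 0.62, Faf2 at 0.51 and Ufd1 at -0.51. The ATPase Vcp itself was at -0.49 (0.0586). Of the ubiquitin genes and E1 enzymes 1 of 6 was measured, Uba6, at -0.02.

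The known regulators did not move as 1 group. The counts of this paragraph stand beside 14.5% of all genes called higher and 18.1% lower. For the bright genes these shares were 28.0% and 26.6%, and no list was tested against them. Of 10 transcription factors and helpers linked to proteasome genes, none rose and 2 fell, Bach1 by 0.60 (limma adjusted p = 0.00771) and Nfe2l2 by 0.54 (0.0219). Nfe2l1, the factor that raises proteasome genes when the proteasome is inhibited, was at 8.48, 8.36 and 8.22 in presort and at 8.44, 8.45 and 8.51 in sorted arrays (0.11; 0.523), with overlap. In the interferon-gamma axis, which induces the immunoproteasome, 5 of 9 measured genes rose and 2 fell, with a median of 0.68. Irf1, a factor that acts on immunoproteasome genes, was at 10.995, 11.03 and 11.15 before and at 12.24, 12.13 and 12.15 after sorting, and rose by 1.12 ± 0.10 (SE; 0.000122). Nlrc5, the activator of MHC class I genes, rose by 1.11 and Irf8, also a myeloid and B lineage factor, by 0.89, whereas the receptor chain gene Ifngr1 fell by 0.97. Of 11 genes of MHC class I peptide loading, Tapbp rose by 0.58, Pdia3 stood at -0.85 and was called lower, and the other 9 did not pass (median 0.22).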

How the data were processed

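RNA of 3 presort and 3 sorted samples was labelled from the 3' end (3' IVT Express kit, per the labels' protocols). The authors deposited RMA intensities, which the values show to be linear and not yet in log2; RMA is named in the submitters' processing notes. They run from 9.71 to 38492, and the ranked values of the 6 arrays agreed within 0.181%. The RMA version was not given in the sources used here.

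Log2 was taken with no pseudocount. Of 45101 probe sets, 34945 carried 1 symbol, and the one with the highest mean over 6 arrays stood for a gene. The group difference was fitted by limma's lmFit and eBayes (version 3.58.1, R 4.3.3). Its two-sided p-values were adjusted by Benjamini-Hochberg across all 18193 genes, dim ones included, and a call needed an adjusted p under 0.05. The steps were tested on simulated data. Figures were drawn with matplotlib 3.10.9. The number of arrays limits the precision.

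Per the labels' protocols each numbered replicate was 1 pool of mice, so the numbers pair presort and sorted samples. After subtracting group means, the arrays of a pool correlated over genes at 0.39, 0.20 and -0.03. The fit with the pool as a block is an alternative. Others left out arrays, pools, dim genes or x_at and s_at probe sets, or changed normalization, probe set summary, prior, weights or covariate.

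The members and gene lists were chosen with earlier results of these data known. Values array by array are given for the immunoproteasome subunits and their counterparts, and per role for called genes with the largest differences and the brightest gene. The 4 promoter motifs and the brightness limit of 9 were chosen after values were seen. The renin gene is not reported here.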

Additional observations from a re-analysis of the deposited data

How the results depend on the processing

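Of the 18 called proteasome genes, 7 kept their call under all 18 alternatives: Psme4, Psme3, Psmf1, Psmg1, Psma7, Psmd1 and Psmc3ip. Leaving out arrays or pools gave 8 to 19 lower and 1 to 4 higher proteasome genes, with 9 lower without presort replicate 2 or without pool 3, 8 lower and 1 higher without pool 2, and 1544 higher of all genes without pool 3. With median centring 8 were lower and 5 higher, and 5162 of all genes were higher. With the beta-actin covariate 10 were lower and 3 higher, with a median of -0.19 against -0.38: Psma1, Psma4, Psmb9, Psmc3, Psmd12 and Psmg2 lost their call and Psmb1 passed (limma adjusted p = 0.0259). The replicate block gave 22 lower and 3 higher; it added Psma5, Psmb2, Psmd3, Psmd4, Psmd7, Psmd10 and Psmd13 and ended no call. Psmb7 also passed with quantile normalization over genes (limma adjusted p = 0.0498), without the dimmest genes (0.0356) and with an intensity trend (0.0316). The changes of the 3 pairs kept their sign in 13 alternatives each, over 0.14 to 0.55 for Psmb8 over Psmb5, -0.20 to -0.10 for Psmb9 over Psmb6 and 1.09 to 1.82 for Psmb10 over Psmb7; paired by pool each had an exact p of 0.25, the smallest for 3 pairs.

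The sign turned under some alternatives for 15 uncalled genes and, of the called ones, for Psmd9 (0.033 as the mean of its probe sets). With median centring Psme1 stood at 0.16, Psmg3 at 0.21, Psma2 at 0.20, Psma6 at 0.046, Psmc6 at 0.053, Psmc4 at 0.039 and Psmb11 at 0.14. With the beta-actin covariate Psme1 stood at 0.16, Psmg3 at 0.11, Psmb2 at 0.13, Psmc4 at 0.054, Psmc2 at 0.13, Psmd13 at 0.094 and Psmb11 at 0.034. As the mean of probe sets Psmg3 stood at 0.14, Psma6 at 0.12, Psmb3 at -0.11, Psmb1 at 0.086, Psmc1 at -0.053 and Psmd11 at -0.021, and Psmg3 stood at 0.10 with quantile normalization. Leaving out single arrays gave -0.19 to 0.049 for Psme1, -0.13 to 0.062 for Psmg3, -0.094 to 0.044 for Psma2, -0.053 to 0.22 for Psmb8 and -0.098 to 0.16 for Psmc1. Without pool 1 Psme1 stood at 0.0060, without pool 2 Psmb8 at -0.082 and Psmc1 at -0.067, and without pool 3 Psmg3 at 0.060 and Psma2 at 0.046.

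The cause of these changes was not tested.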

Other observations

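Other protein complexes and the other degradation route were read beside the proteasome. Of the 9 genes of the COP9 signalosome, a relative of the proteasome lid, 2 fell and none rose (median -0.16). Cops3 was at 11.19, 11.18 and 11.24 in presort and at 10.68, 10.26 and 10.41 in sorted arrays and fell by 0.76 (limma adjusted p = 0.00274), and Cops5, its protease subunit, fell by 0.58 (0.00936). Of the 8 genes of the cytosolic chaperonin 2 fell, Cct8 by 0.47 and Cct7 by 0.43, and none rose (median -0.15). Of 20 autophagy genes 6 fell and 3 rose (median -0.12). Wipi1, which binds forming autophagosomes, stood at 10.14, 10.24 and 10.31 before and at 6.92, 7.72 and 7.27 after sorting and fell by 2.93 (2.86e-05), while Map1lc3b, a membrane marker of autophagosomes, was at 12.51, 12.59 and 12.68 before and at 13.26, 13.24 and 13.27 after and rose by 0.66 (0.00155). Over all genes tested 18.1% were called lower and 14.5% higher, and over the bright ones 26.6% and 28.0%. No test set these lists against the proteasome genes.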
